A study of Saccharomyces cerevisiae with 58 samples.

Results

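The ORFs described here carry a systematic name only and rose in wild type yeast under hydrogen peroxide (H2O2). A probe set was taken when its log2 level exceeded its own level at 0 min by more than 1.75-fold (0.81 on the log2 scale) in at least 2 of the 6 later arrays of the wild type H2O2 course. This selected 62 probe sets of 61 ORFs (YGR174W-A has 2 probe sets), out of 508 probe sets of 499 ORFs with a systematic name only and 5716 probe sets of 5449 genes in all. The same fold was passed by 344 probe sets of 340 genes with a standard name, and by 7.59% of all probe sets. 1 further ORF was set aside by the rule. Because the members were chosen by these wild type arrays, all values of the wild type H2O2 course are given as a description without a test.

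Just inside the limit, the second highest change was 0.81 for YLR257W, 0.81 for YDL057W and 0.83 for YOR161C-C, whereas just outside it was 0.80 for YAL065C, YDL199C and YJL027C. The edge of the set is therefore continuous with ORFs that were left out.

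The measurements were made on Affymetrix arrays of Saccharomyces cerevisiae, in a strain whose RNA polymerase II subunit Rpb6 carries a point substitution (the rpb6 mutant, with the chromosomal RPB6 replaced by HIS3 and the gene supplied on a centromeric LEU2 plasmid) and in its parental wild type. Both are MATalpha ura3-52 his3delta200 lys2delta201 ade2 strains grown in rich medium to mid log phase. Each strain was followed for 45 min in 0.3 mM H2O2 and for 180 min in 0.1% methyl methanesulfonate (MMS), which alkylates DNA. Each strain was also followed for 50 min after phenanthroline, an inhibitor of transcription, either alone (the reference) or added 7 min after 0.3 mM H2O2.

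Yeast exposed to H2O2 activates the transcription factor Yap1, which induces thioredoxins, peroxiredoxins, glutathione enzymes and reductases of reactive carbonyl compounds, and the factors Msn2 and Msn4, which induce genes shared by many stresses. An ORF keeps only its systematic name, which gives chromosome, arm, order and strand, as long as nobody has assigned it a gene name. Many such ORFs nevertheless belong to known protein families through their sequence, and a role below is a family membership from background knowledge, not a result.

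There were 58 arrays in 8 courses with 1 array per time point, and each course came from 1 culture. The error of a test is therefore the scatter of the arrays about a fitted curve or line, and differences between courses cannot be told apart from differences between cultures. RNA came from whole cultures, so more cells with a transcript and more transcript per cell cannot be told apart either. Of the S. cerevisiae probe sets, 97.6% lay above 5.11, the 95th percentile of the mean log2 level of 1747 fission yeast probe sets that serve as background. All members had a mean level above it, and 3 were below it in the wild type array at 0 min, namely YOL131W and both probe sets of YGR174W-A. Their log2 differences from 0 min in that course start from a level not above background and are not measured folds. The MATalpha genes MF(ALPHA)1, MF(ALPHA)2, SAG1 and STE3 had median levels of 13.70, 13.12, 12.21 and 11.18. The MATa genes MFA1, STE2, AGA2, BAR1 and MFA2 had medians of 8.49, 7.37, 7.21, 6.72 and 6.26. In the mutant reference course the 20 min array lay out of the order of its time, at only 9.01% of the way from the first to the last array, whereas the 10 min array lay at 31.8%.

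By family, 4 members belong to the medium-chain dehydrogenases and reductases (YCR102C, YLR460C, YML131W and YNL134C). Another 7 resemble other reductases, namely YKL107W, YLL056C and YMR090W with nucleotide-binding folds of the short-chain type, the aldo-keto reductases YJR096W, YDL124W and YPR127W, and the hydroxyacid reductase homolog YPL113C. YGL114W resembles oligopeptide transporters and YLR152C resembles auxin efflux carriers. A further 11 members are homologs of other proteins, and the remaining 37 ORFs were given no family here. Of the 62 probe sets, 13 belong to small ORFs annotated later than the main set, whose names end in a further letter.

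The largest rise was that of YDL218W, a protein of unknown role. Its log2 level in wild type was 6.25 at 0 min, 10.15 at 5 min, 11.64 at 10 min, 11.96 at 15 min, 11.81 at 25 min, 10.89 at 35 min and 9.55 at 45 min. In the mutant the levels at the same times were 6.003, 10.50, 11.79, 11.99, 11.86, 11.27 and 10.20. Thus a transcript of low level rose by 5.71 in wild type and by 5.99 in the mutant, and it was still far above its start when sampling ended.

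YKL070W rose less, by at most 3.87 in wild type and 3.60 in the mutant, and returned close to its start. Its wild type levels were 6.03, 8.86, 9.83, 9.90, 8.45, 6.60 and 6.35 from 0 to 45 min. Its mutant levels were 6.22, 8.71, 9.82, 9.79, 8.43, 6.87 and 6.48, and the pair of curves lay within 0.27 of each other at every time. The reductase homologs YCR102C and YLR460C reached their plateau in the first 5 min. YCR102C had levels of 7.995, 11.46, 11.58, 11.40, 10.81, 9.63 and 8.64 in wild type. In the mutant YCR102C was at 8.35, 11.72, 11.71, 11.77, 11.39, 10.67 and 9.71, so that it was higher than in wild type in all 7 arrays and by the most at the end. YLR460C followed the same course, at 8.15, 11.42, 11.50, 11.45, 10.97, 10.26 and 8.80 in wild type. Its mutant levels were 8.88, 11.94, 11.89, 12.17, 11.79, 11.18 and 10.60.

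YML131W and YMR090W differed from these in that they started high and stayed high. YML131W stood at 10.88, 13.77, 13.99, 14.05, 13.98, 13.62 and 13.04 in wild type. In the mutant it began higher and reached the same level, at 11.73, 13.82, 14.004, 14.06, 14.01, 13.83 and 13.47. The highest level of any tested probe set in these arrays was 14.95, and whether the brightness of YML131W compresses its change was not tested. YMR090W was at 10.14, 11.81, 12.84, 13.21, 13.26, 13.11 and 12.83 in wild type, and at 10.81, 12.01, 12.85, 12.98, 13.07, 12.93 and 12.71 in the mutant. YNL134C, the last of the medium-chain reductases, rose from 12.57 to at most 14.09 in wild type and from 13.29 to at most 14.05 in the mutant.

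The next members were transient. YIL165C, a part of the nitrilase gene NIT1 that is split in the laboratory strain, went from 9.96 at 0 min to 12.51, 12.75, 12.61, 11.30, 10.37 and 10.19 in wild type. In the mutant it went from 10.23 to 12.69, 12.80, 12.32, 10.95, 10.19 and 9.90. YLR108C went from 10.11 to 12.79, 12.84, 12.70, 11.98, 10.75 and 9.47 in wild type, and from 9.83 to 12.76, 12.71, 12.68, 12.11, 10.79 and 9.74 in the mutant. Both were back at or below their start at 45 min, apart from YIL165C in wild type at 0.23 above it.

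Of the short-chain reductase homologs, YKL107W had wild type levels of 6.03, 7.42, 8.26, 8.37, 7.72, 7.12 and 6.87 and mutant levels of 6.15, 7.73, 8.22, 7.72, 7.00, 6.56 and 6.30. YLL056C had wild type levels of 9.22, 11.01, 11.43, 11.55, 11.29, 10.70 and 10.17 and mutant levels of 9.46, 11.50, 11.82, 11.85, 11.54, 11.05 and 10.09. In the first the mutant fell earlier, and in the second the strains ran in parallel. YLR297W peaked at 5 min, with 9.91, 12.22, 12.01, 11.87, 10.56, 10.32 and 10.02 in wild type and 10.48, 12.72, 12.18, 11.82, 10.74, 10.60 and 10.54 in the mutant. YGL114W, the oligopeptide transporter homolog, was at 10.20, 12.13, 12.37, 12.38, 11.28, 10.31 and 10.33 in wild type and at 10.37, 12.18, 12.56, 12.39, 11.32, 10.50 and 10.10 in the mutant.

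**Figure D1:**
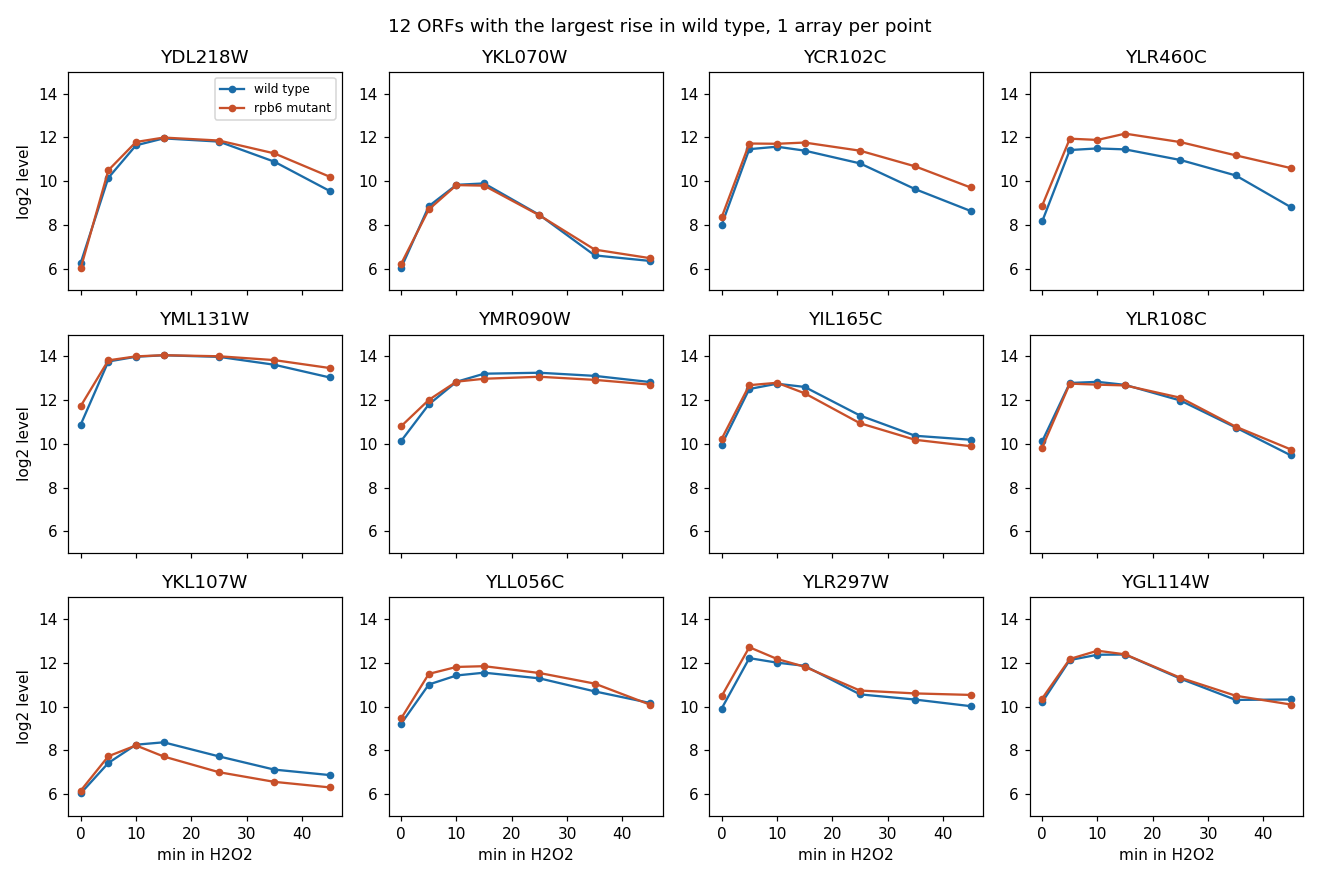
Log2 level against time in 0.3 mM H2O2 (min) for the 12 ORFs with the largest rise in wild type, 1 array per point, wild type in blue and the rpb6 mutant in orange. The strains lie within 0.27 of each other for YKL070W. At 35 and 45 min YKL070W, YDL218W, YCR102C, YLR460C, YML131W, YLR108C and YLR297W are higher in the mutant.

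The time of the first rise divided the members. In wild type 24 probe sets had passed the fold at 5 min and 38 had not. Besides the 12 ORFs above, the early group held YHR007C-A, YDR042C, YOL029C, YNR068C, YMR085W, YER053C-A, YNL134C, YLL054C, YDR003W-A, YOL155W-A, YOR161C-C and 1 of the 2 probe sets of YGR174W-A. Among them, YNR068C is a part of a homolog of the ubiquitin ligase adaptors Bul1 and Bul2, YMR085W is a part of a homolog of the glucosamine synthesis enzyme Gfa1, and YLL054C resembles zinc cluster transcription factors. The median largest rise was 2.13 (0.89 to 5.71) in the early group and 1.18 (0.83 to 1.77) in the later group. At 45 min the early members retained a median of 18.6% of their largest log2 rise and the later members 60.4%. This division was made after the values had been seen, and it serves to describe the other arrays below.

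The later group comprised YPL247C, YBR284W, YOL131W, YJR096W, YNR014W, YGL258W-A, YNL092W, YJL163C, YPL113C, YOR289W, YOR186W, YLR152C, YMR196W, YLR345W, YOL038C-A, YHR140W, YHR138C, YPL119C-A, YKL091C, YLR177W, YLR031W, YNR071C, YNL208W, YIL055C, YFL041W-A, YER079W, YLR154C-H, YKL162C, YNL195C, YMR181C, YJR079W, YDL124W, YER039C-A, YJL070C, YLR257W, YPR127W, YDL057W and the other probe set of YGR174W-A. It holds homologs of enzymes of metabolism: YBR284W and YJL070C resemble AMP deaminase, YLR345W resembles 6-phosphofructo-2-kinase, YNR071C resembles aldose 1-epimerase, and YNL092W is a methyltransferase homolog. YKL091C resembles the lipid transfer protein Sec14, and YHR138C resembles the proteinase inhibitor Pbi2. YBR284W, the member of this group with the largest rise but 1, rose by 1.69 in wild type and by 0.59 in the mutant.

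**Figure D2:**
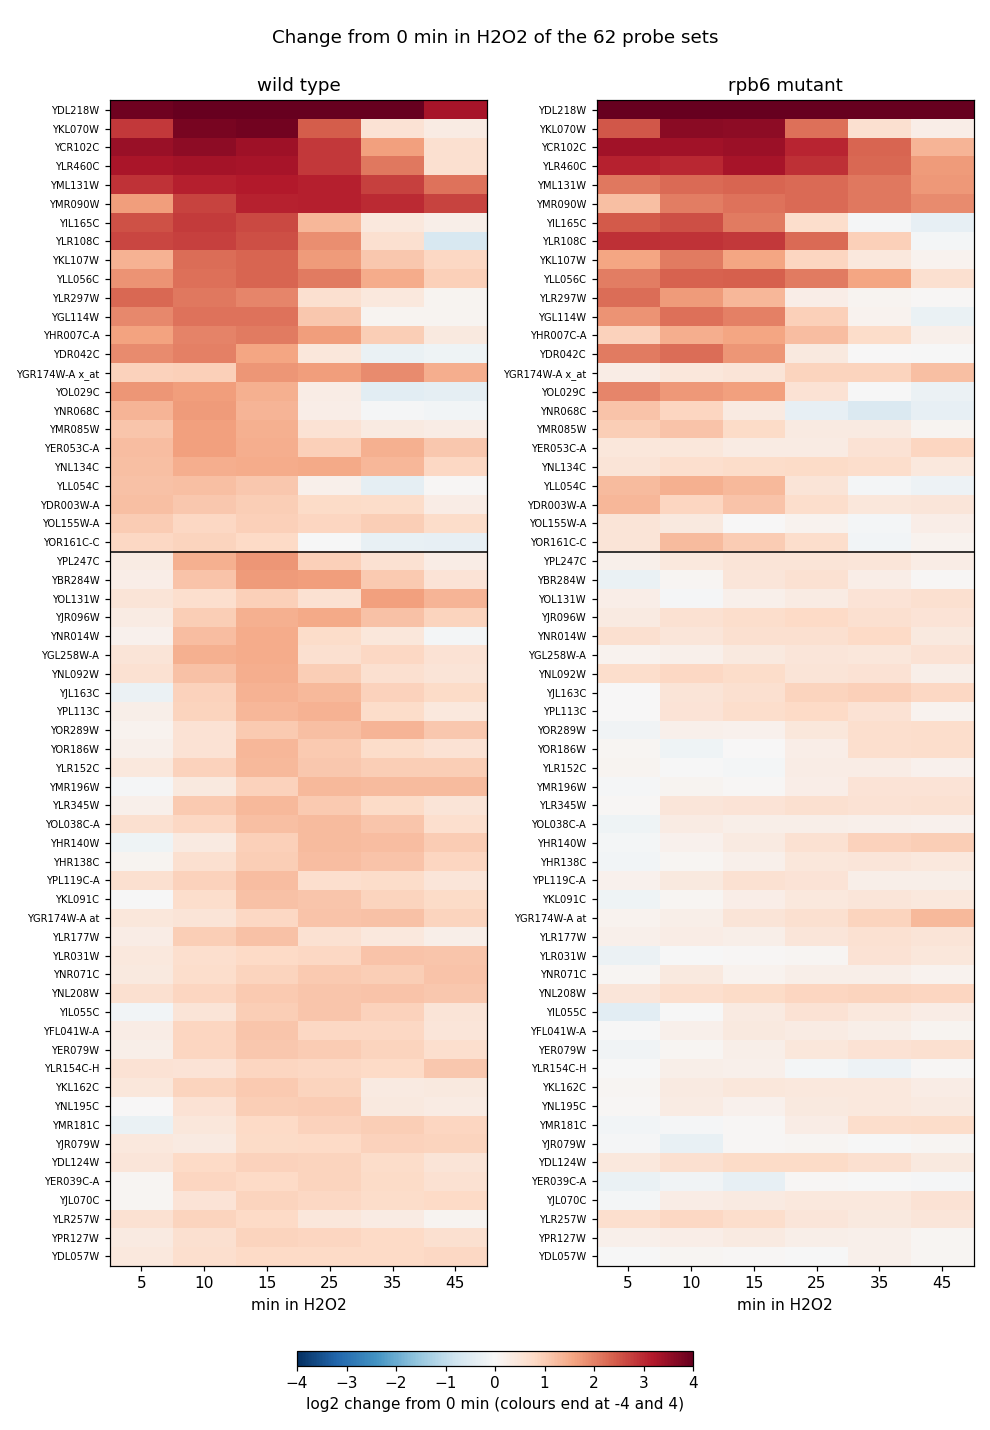
Log2 change from 0 min (colour) of the 62 probe sets against time in 0.3 mM H2O2 (min) in wild type and in the rpb6 mutant, 1 array per column. Above the line are the 24 probe sets that had passed 1.75-fold at 5 min in wild type, with a median largest rise of 2.13 in both strains. Below it are the 38 later ones, with medians of 1.18 in wild type and 0.59 in the mutant. Over all probe sets the medians were 0.14 and 0.10. Wild type arrays chose and divided the members, which favours wild type values, above all near the limit, where the later members lie.

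The mutant course was not used to choose the members, and it asks whether they also rise in cells with the altered polymerase. limma's test of a spline through the 7 mutant arrays, with Benjamini-Hochberg adjustment over 5716 probe sets at 0.05, called 42 of the 62 probe sets higher, against 14.9% of all probe sets, and 1 lower, against 14.2%. Of the 344 probe sets of named genes chosen by the same fold, 284 were called higher. In the early group 19 of 24 were called higher and in the later group 23 of 38. By size, 22 of 24 early members passed the fold at some time in the mutant, against 6 of 38 later ones and 281 of all 5716 probe sets. The fold at 2 or more times was passed in the mutant by 25 members, against 4.02% of all probe sets.

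The later members that passed the fold in the mutant were YHR140W (0.97), YJL163C (0.95), YNL208W (0.88), YLR257W (0.83), YNL092W (0.81) and the later probe set of YGR174W-A, which began below background at 4.41 and reached 5.72. The median largest rise of the early members was 2.13 in the mutant (0.51 to 5.99), as large as in wild type. For the later members it was 0.59 (0.05 to 1.31, the highest being that probe set of YGR174W-A), and 37 of 38 had a lower maximum in the mutant, against 15 of 24 early members. Since wild type arrays chose and divided the members, wild type maxima are favoured, above all near the limit, where the later members lie. The strain difference was not tested. The smallest maxima in the mutant belonged to YER039C-A (0.05), YJR079W (0.09) and YDL057W (0.20).

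The tests did not follow the size of the rise. YDL218W was called with an adjusted p of 0.0097, YKL070W with 0.0012, YCR102C with 0.046 and YLR460C with 0.041. YLR297W, with a rise of 2.24, was not called, at an adjusted p of 0.075. Without the 10 min array only 18 members were called, and the calls of YCR102C, YLR460C and YML131W were lost or turned under 8, 9 and 7 of 12 other settings. The single member called lower was YNR068C, whose mutant level was 8.98 at 0 min, 10.12 at 5 min and 9.85 at 10 min before it fell to 8.41 at 35 min. Its direction turned when the 15, 35 or 45 min array was left out.

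A second look at early induction comes from the decay cultures, which also had no part in the choice. There H2O2 was present for 7 min before phenanthroline, and the 0 min arrays with and without H2O2 show what those 7 min did, with 1 array each and no test. In wild type 25 members were above 1.75-fold, against 3.57% of all probe sets, and in the mutant 21, against 2.73%. All 21 were among the 25 of wild type. The early members accounted for 22 of the 25 and 20 of the 21, and the others were YNL092W, YNR014W and YPL247C in wild type and YNL092W in the mutant. The early members that did not pass in wild type were YOL155W-A and the early probe set of YGR174W-A. The medians were 1.98 and 1.70 for early members in wild type and mutant, 0.32 and 0.04 for later members, and -0.07 and -0.06 over all probe sets.

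YDL218W rose by 5.12 in wild type and 5.05 in the mutant after 7 min. YCR102C rose by 3.82 and 3.75, and YLR460C by 3.60 and 3.47. These 3 ORFs thus responded with nearly the same size in independent cultures of both strains. YKL070W rose by 2.997 in wild type and 2.38 in the mutant. YER053C-A showed a wider gap, with 2.08 against 0.92, and so did YMR090W with 2.15 against 1.28. The opposite order was seen for YKL107W, at 1.80 in wild type and 2.39 in the mutant, and for YOL029C, at 1.88 and 2.30.

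**Figure D3:**
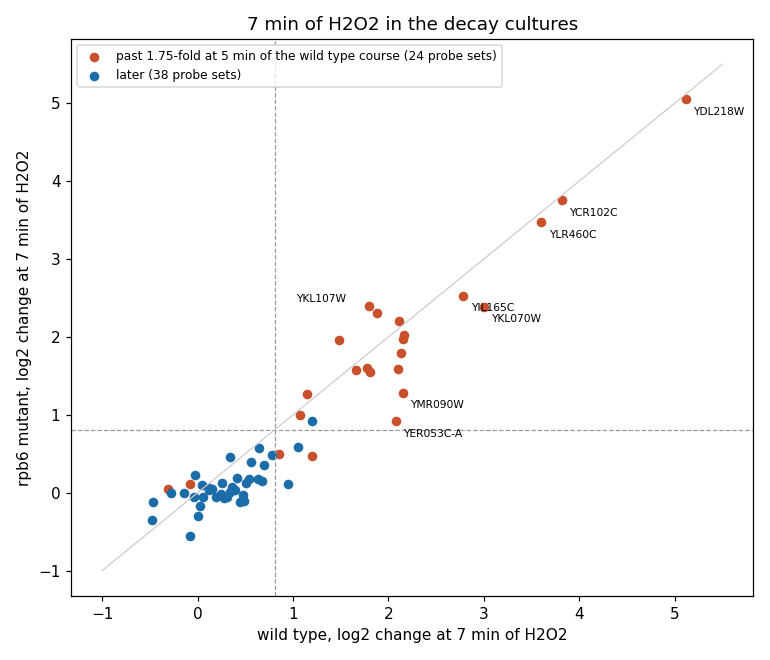
Log2 change after 7 min of H2O2 in the rpb6 mutant against wild type, each point a probe set (difference of 2 arrays per strain), with the fold limit as dashed lines and equality as a grey line. Early members (orange) fill the upper right, led by YDL218W at 5.12 and 5.05, whereas later members (blue) lie lower, with medians of 0.32 in wild type and 0.04 in the mutant.

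MMS asks whether these ORFs respond to H2O2 alone. In wild type 56 of the 62 probe sets were called higher in the MMS course, against 46.0% of all probe sets, and 1 lower, against 40.6%. The direction is that of the fitted curve. YLR154C-H counts as higher, although its observed change of largest size was -0.98 at 40 min and its highest was 0.80. In the mutant MMS course 56 were higher, against 44.8%, and 1 was lower, against 38.3%. In both strains 53 were higher, a joint count for which the share over all probe sets is not given. Of the 344 named probe sets of the same fold, 297 were higher in wild type and 267 in the mutant. Since most probe sets were called in one direction or the other, sizes are given as well. The fold at 2 or more times was passed by 56 members in wild type, against 27.3% of all probe sets, and by 59 in the mutant, against 26.5%. The median change of largest size was 2.45 in wild type and 2.29 in the mutant, against 0.24 and 0.25 over all probe sets.

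For most members the MMS rise exceeded the H2O2 rise. In wild type this held for 52 of 62 probe sets, of which 36 were among the 38 later members and 16 among the 24 early ones. The courses differ in dose, length and normalization, and this was not tested. The share over all probe sets is not given for this count, so it does not set the members apart. Of all 5716 probe sets, 1731 were above the fold by their MMS change of largest size in wild type. By their largest H2O2 change 546 were. YOR186W, a later member, rose by 1.33 in H2O2 and by 4.41 in MMS. YNR068C rose by 1.70 and 4.25. YOL131W, below background at 0 min in both courses, reached 5.39 in H2O2 and 8.93 in MMS. Conversely YDL218W, with its 5.71 in H2O2, reached 1.42 in MMS, and YCR102C, with 3.58, reached 2.20 and was not called.

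YKL070W was strongly induced in both stresses and both strains. In wild type its MMS levels were 6.56 at 0 min, 8.02 at 20 min, 8.96 at 40 min, 8.72 at 80 min, 8.91 at 100 min, 9.14 at 120 min, 9.61 at 140 min and 10.57 at 180 min. In the mutant the same times gave 6.199, 8.26, 10.40, 10.11, 10.06, 10.24, 10.67 and 11.41. Unlike its transient pulse in H2O2, the level still climbed at the last array. YBR284W, the AMP deaminase homolog, climbed from 6.95 through 8.72, 9.41, 9.67, 10.24, 10.50 and 10.69 to 10.70 in wild type and from 6.89 through 8.73, 9.80, 10.37, 10.61, 10.68 and 10.90 to 10.99 in the mutant.

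YNR068C jumped from 7.45 to 11.32 at 20 min in wild type and remained at 11.43, 11.68, 11.70, 11.57, 11.36 and 11.32. In the mutant it went from 8.45 to 10.91, 11.38, 10.96, 10.75, 10.68, 10.52 and 10.71. YER053C-A instead was highest at 20 min in wild type and at 80 min in the mutant and then declined, with 7.69, 11.81, 11.71, 11.51, 10.64, 9.97, 9.03 and 8.65 in wild type and 7.53, 11.04, 10.92, 11.14, 10.42, 10.01, 9.17 and 8.69 in the mutant. By the test, the members with the largest fitted rise from a start above background were YNR068C, YKL070W and YMR090W in wild type (4.13, 3.93 and 3.75) and YKL070W, YBR284W and YHR007C-A in the mutant (5.23, 3.99 and 3.92). YOL131W was also called higher in both strains, but it began at 4.87 and 4.39, below background, so its fitted changes of 4.30 and 4.83 are not ranked with them. The adjusted p values of all these in limma were at most 0.0015.

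By its calls, YDR042C parted from the rest. It rose by 2.01 in H2O2 in wild type and by 2.22 in the mutant, yet it was called lower in MMS in both strains. Its wild type MMS levels were 8.96, 9.37, 8.86, 7.67, 7.40, 7.11, 7.08 and 7.52, and its mutant levels were 7.67, 8.51, 8.51, 7.51, 7.15, 7.18, 7.00 and 7.32. In wild type a rise of 0.40 at 20 min preceded a fall to 1.88 below the start. In the mutant the level was 0.84 above its start at 20 and 40 min and later changed by at most -0.68, so that its largest observed change was upward and the direction of the call is that of the fitted curve. The limma test gave adjusted p values of 1.9e-05 and 0.00084. In the mutant the call was lost without the 40 min array, and its direction turned without the 180 min array. The zinc cluster factor homolog YLL054C (-0.21 in wild type and -0.80 in the mutant) and YNR071C (1.39 and 1.36) passed in neither strain. YCR102C, YLR108C and YOL029C did not pass in wild type, and YIL165C, YLR152C and YNL195C did not pass in the mutant. YLR108C did so in spite of levels that rose from 9.50 to 12.31 at 20 min and then lay between 11.89 and 12.60.

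**Figure D4:**
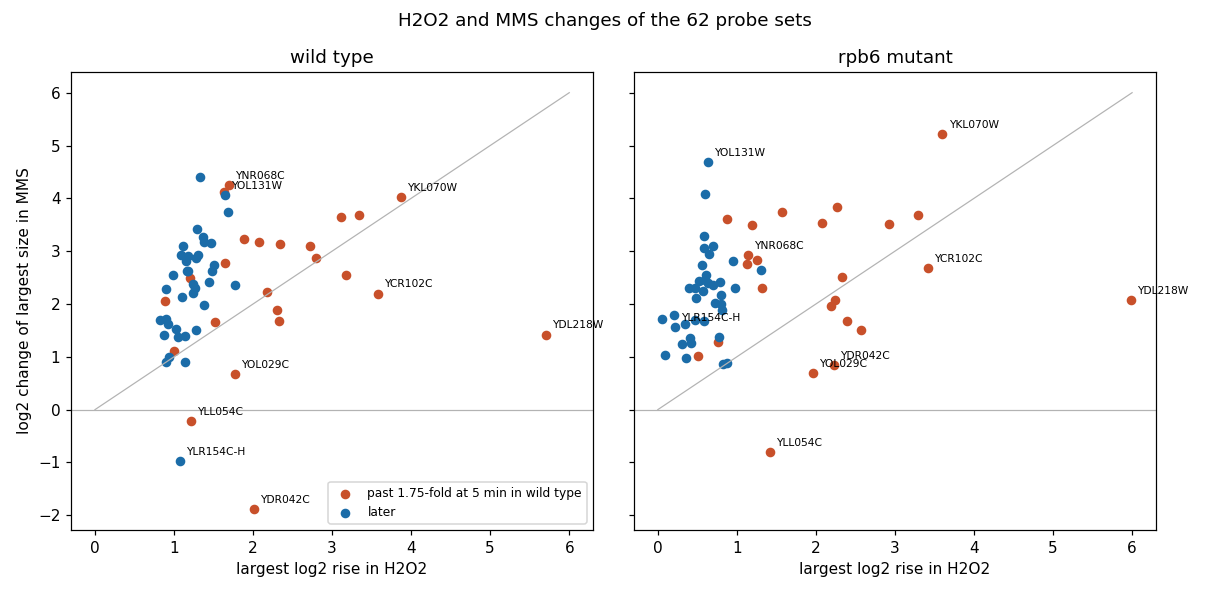
Log2 change of largest size in MMS against the largest log2 rise in H2O2 for the 62 probe sets in wild type and the rpb6 mutant, early members in orange and later members in blue, with equality as a grey line. Most points lie above the line, while YDL218W, YCR102C and YOL029C lie below it and YDR042C falls to -1.88 in wild type.

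The test of the difference between the MMS courses of the strains passed for 2 members. YGL258W-A was lower in the mutant, against 1.22% of all probe sets in that direction, and YLR154C-H was higher, against 1.52%. YGL258W-A rose from 5.41 through 7.19, 8.16, 8.56, 8.12, 8.12 and 7.75 to 7.79 in wild type. In the mutant it rose from 4.49 through 5.09, 5.44, 6.01, 6.17, 5.91 and 5.87 to 5.87, and its levels up to 20 min lay below the fission yeast background of 5.11. The fitted difference was -1.61 (adjusted p = 0.028). YLR154C-H fell first in wild type (9.79, 9.03, 8.81, 9.85, 9.91, 10.18, 10.49 and 10.59) and rose first in the mutant (9.14, 10.31, 10.69, 9.88, 9.96, 9.78, 9.69 and 9.86), with a difference of 1.74 (adjusted p = 0.042). The suffix of its probe set marks probes shared by several sequences. Both calls were lost with 2 degrees of freedom for the spline, and each was lost without the 20, 40 or 100 min arrays. The direction of YLR154C-H turned with 2 degrees of freedom and without the 40 min arrays.

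The decay courses show how the transcripts fared once transcription was inhibited. The deposited levels were equalized between arrays, so a slope of log2 level on time is relative to the average mRNA. A positive slope means that the level fell less than the average or rose, so a slope alone is not a rate of loss. Relative to the average, most members rose after phenanthroline. In the wild type reference their median slope was 0.0281 per min, against 0.00182 over all probe sets, and 54 of 62 had a positive slope. In the mutant reference the median was 0.0155, against -0.000187, and 50 of 62 were positive. In the authors' decay ratios, which are scaled to the mean decay of all mRNA, 18 members were still above their starting level at 50 min in the wild type reference, against 3.52% of all probe sets, and 6 in the mutant reference, against 1.99%. For such members a decay rate cannot be given. YER053C-A, for example, stood at 2.77 times its start in the wild type reference and YMR090W at 1.78 times.

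Where an exponential described the scaled ratios with an R2 above 0.9, half-lives could be read. This was so for 18 members in the wild type reference, against 80.5% of all probe sets, and for 50 in the mutant with H2O2, against 93.5%. Half-lives in the wild type reference therefore cover a minority of the members. In the wild type reference YLR460C had a half-life of 25.1 min, YGL114W of 32.0 min, YCR102C of 45.8 min, YDL124W of 59.6 min and YNL134C of 81.4 min. YLR152C, at 23.3 min, and YDR042C, at 21.5 min, lay near the median of 23.3 min over all fitted probe sets. The median over the fitted members was 29.2 min.

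In wild type the slope became lower with H2O2 than in the reference for 54 of 62 probe sets (the level fell more, or rose less, relative to the average mRNA). With H2O2 the members still had a median slope of 0.0179 per min, and 49 of 62 were positive. The shares over all probe sets are not given for these counts, so the counts alone do not set the members apart. By limma the change passed for 14 members, against 4.93% of all probe sets, and no member passed in the other direction, against 5.35%, nor did any at an unadjusted p under 0.05. Among the 344 named probe sets 88 were lower and 6 higher. Of the 14, early members were 9 (YML131W, YMR090W, YKL107W, YLR297W, YGL114W, YHR007C-A, YMR085W, YER053C-A and YNL134C) and later members 5 (YBR284W, YNL092W, YLR152C, YMR196W and YDL124W). 5 of the 14 had risen above their start at 50 min in the reference. Without the 40 min arrays 7 members passed, and without the 5 min arrays 8.

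The changes were largest for YER053C-A (-0.0390 ± 0.0120 per min, SE, adjusted p = 0.040), YML131W (-0.0367 ± 0.0033, adjusted p = 7.1e-08), YMR090W (-0.0354 ± 0.0061, adjusted p = 0.00051) and YLR297W (-0.0318 ± 0.0071, adjusted p = 0.0054). The call of YER053C-A was kept in only 6 of 12 other settings, against 12 for YML131W and YMR090W and 11 for YLR297W. The reference levels of YML131W in wild type rose from 11.66 through 11.90, 12.23, 12.75, 13.32 and 13.67 to 13.84, whereas with H2O2 they started at 13.76 and passed 13.89, 13.93, 14.03, 14.14 and 14.30 before 14.18. YMR090W likewise climbed from 10.07 to 12.84 in the reference and from 12.22 to 13.75 with H2O2. In both ORFs the course with H2O2 started from a higher level and stayed above the reference throughout. The highest value of any tested probe set was 14.95, and the part of the high levels in the lower slopes was not tested. YLR297W was different, in that it climbed from 10.44 to 10.68 in the reference but fell from 12.60 to 11.24 with H2O2, and YGL114W fell from 12.18 to 11.64 while its reference rose from 10.01 to 10.50.

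In the mutant the slope was also lower with H2O2 for 50 of 62 probe sets, but few members passed. The share over all probe sets is not given for this count either. YHR007C-A passed with a lower slope, against 1.40% of all probe sets, at a change of -0.0254 ± 0.0049 per min (adjusted p = 0.0075). YCR102C and YLR460C passed with a higher slope, against 1.33%, at changes of 0.0159 ± 0.0033 (adjusted p = 0.015) and 0.0274 ± 0.0042 (adjusted p = 0.0012). YLR460C in the mutant declined from 8.36 through 8.34, 8.25, 8.25, 8.09 and 8.11 to 7.81 in the reference, and rose from 11.83 through 11.95, 12.02, 12.11, 12.41 and 12.52 to 12.74 with H2O2. Its scaled half-life was 21.3 min in the mutant reference and 47.0 min with H2O2. In wild type its fit with H2O2 missed the R2 limit. Its scaled ratio at 50 min was higher with H2O2 in both strains, at 0.315 against 0.246 in wild type and 0.489 against 0.178 in the mutant. A direct test of the strain difference did not pass for YLR460C. YCR102C went from 27.0 to 47.2 min in the mutant, and from 45.8 to 40.5 min in wild type. When the mutant reference was read without its arrays at 10 and 20 min, the 3 changes were -0.0259, 0.0159 and 0.0275, and all 3 still passed. Over 12 other settings the call was kept in 12 for YLR460C, in 9 for YHR007C-A and in 8 for YCR102C.

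The strain difference of this change passed for 3 members, all with a more positive change in the mutant, against 0.560% of all probe sets, and for none in the other direction, against 0.0875%. All 3 are medium-chain reductase homologs. Among the 344 named probe sets 19 passed with a more positive change in the mutant and 1 in the other direction. The difference was 0.0293 ± 0.0047 per min for YML131W (adjusted p = 0.0022), 0.0210 ± 0.0047 for YCR102C (adjusted p = 0.032) and 0.0202 ± 0.0022 for YNL134C (adjusted p = 1.7e-05). For YML131W and YNL134C the strains differed mainly in the reference, with slopes of 0.0460 and 0.0262 in wild type against 0.0148 and 0.0038 in the mutant, whereas with H2O2 the slopes were 0.0093 and 0.0081 in wild type against 0.0074 and 0.0059 in the mutant. The reference level of YNL134C climbed from 12.69 to 13.93 in wild type and from 13.44 to 13.66 in the mutant. The scaled ratio of YML131W at 50 min in the wild type reference was 1.19, above its start. Its slope there is therefore not a decay rate. Only 5.34% and 2.80% of all probe sets had a mean level in the decay arrays above those of YML131W and YNL134C, and the part of their brightness in these slopes was not tested. With those arrays left out YML131W and YNL134C passed and YCR102C did not (0.0210, adjusted p = 0.052).

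**Figure D5:**
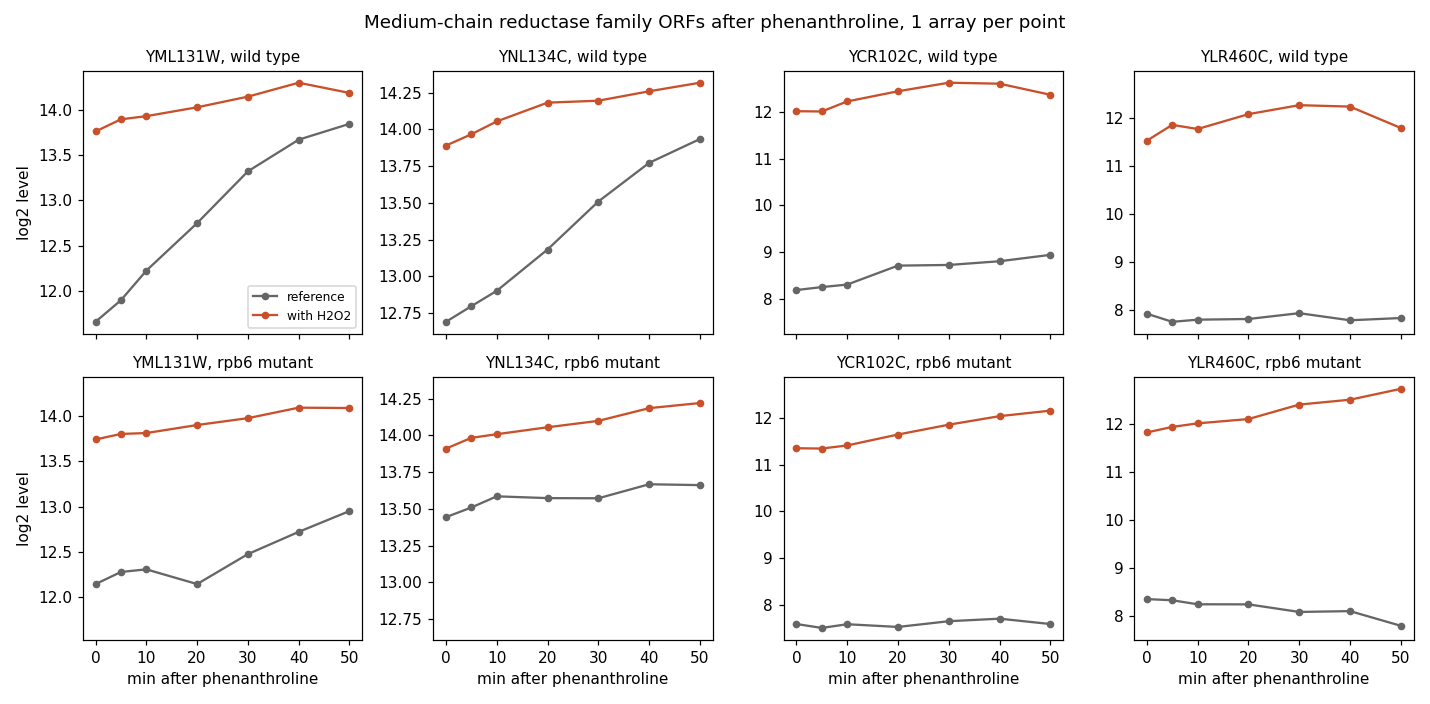
Log2 level against time after phenanthroline (min) for the 4 medium-chain reductase homologs in wild type (top) and the rpb6 mutant (bottom), reference in grey and with H2O2 in orange, 1 array per point. The wild type reference of YML131W climbs from 11.66 to 13.84, while YLR460C in the mutant declines to 7.81 in the reference and rises to 12.74 with H2O2.

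In untreated cells, compared over the 0 min arrays of the MMS and reference decay courses, the strains differed for 2 members. YLR152C, the auxin efflux carrier homolog, was higher in the mutant, against 0.437% of all probe sets, at 10.40 against 9.34 and 10.49 against 9.22. The difference was 1.16 ± 0.10 (SE, adjusted p = 0.030). YHR140W was lower, against 1.22%, at 7.84 against 8.77 and 8.15 against 9.13, with a difference of -0.96 ± 0.09 (adjusted p = 0.034). The strains did not overlap in either, but with 2 arrays per strain and no count of this over all probe sets it adds little. In the 0 min arrays of the H2O2 course, which had a part in the choice, YLR152C stood at 9.79 in the mutant and 9.20 in wild type, and YHR140W at 7.75 and 8.90. Without the normalization set as a block neither passed, at adjusted p values of 0.53 and 0.9998 in limma.

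The neighbours of the members on the chromosome are known for all 61 ORFs from the order of protein-coding genes in the RefSeq annotation of R64. Next to 20 of them lay a gene that also passed the fold in wild type, against 12.8% of all placed genes. This rests on the course that chose the members. The share among named genes past the same fold is not given, so the count does not set these ORFs apart from them. YIL165C lies beside NIT1 (2.68 in wild type, 2.43 in the mutant), of which it is a part, and YNR068C beside BSC5 (1.82 and 1.17). YLL056C lies divergently beside the cysteine transporter gene YCT1 (2.75 and 1.90), whose other side is occupied by YLL054C. YHR007C-A lies beside the mitochondrial superoxide dismutase gene SOD2 (1.72 and 1.34), YOL029C beside the transcription factor gene YAP7 (1.93 and 2.23), YDR042C beside the repressor gene NRG1 (1.81 and 1.25), and YLR345W beside CIS1 (2.58 and 2.65). YER053C-A lies between PIC2 and GIP2, and YOR161C-C between PNS1 and YRR1. The others were YCR102C with PAU3, YDR003W-A with RCR2, YGR174W-A with CBP4, YHR138C with SPS100, YLR177W with TFS1, YLR257W with GSY2, YMR085W with SEG1, YNL092W with YPT53, YOL155W-A with HXT11 and YOR186W with GSP2. No neighbouring pair consisted of 2 members. YJR079W overlaps BNA2 and AIM24, so its level may include theirs.

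Named genes of known regulators put these values in context. Of 27 Yap1 antioxidant genes 25 were called higher in the mutant H2O2 course, with rises in wild type and mutant of 6.30 and 5.89 for SRX1, 6.06 and 5.65 for OYE3, 5.73 and 5.75 for TSA2 and 5.39 and 4.39 for GTT2. Of 28 Msn2/4 stress genes 20 were called higher and 3 lower in the mutant. Their rises were 3.98 and 2.02 for CTT1, 3.64 and 2.38 for RTN2, 3.51 and 2.51 for DDR2 and 2.87 and 0.68 for ALD3, and all 28 rose in MMS in both strains. Of 17 Pdr drug resistance genes 6 were higher and 4 lower in the mutant in H2O2, with GRE2 (2.80 and 3.28) and CIS1 (2.58 and 2.65) far above the others. Of 19 measured DNA damage genes 6 were higher and 3 lower in the mutant in H2O2, while 17 were higher and 2 lower in each MMS course. In the wild type decay courses 13 of the Yap1 genes had a lower slope with H2O2 and 1 a higher one, and 6 of the Msn2/4 genes had a lower slope and none a higher one.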

How the data were processed

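Total RNA was hybridized to 58 Affymetrix arrays. The deposited log2 levels were made by the authors with robust multi-array average (RMA), and the H2O2 (14 arrays), MMS (16) and decay (28) sets were normalized apart, so changes were taken within a set. The deposited decay values are a linear ratio to 0 min that the authors scaled to a common mean decay, and they served for half-lives only. Beside them stood 30 columns of the authors' own log2 fold changes, which were not used.

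Of 10928 probe sets, 5716 of S. cerevisiae were tested, of which the platform annotation names 5498 by a single symbol and leaves 218 without a gene. All 62 members matched RefSeq (R64) and none had another symbol there. limma 3.58.1 (R 4.3.3) fitted 8 tests: natural splines with 3 degrees of freedom for stress courses, lines for decay, and the untreated strains with the normalization set as a block. Adjustment was by Benjamini-Hochberg, and an adjusted p under 0.05 passed. The direction of a course is the sign of the fitted value farthest from 0 min. Exponentials with a free start were fitted with scipy 1.17.1. Both were tested on simulated data. The same-numbered untreated arrays of the strains deviated together (r = 0.66, 0.82 and 0.74), which is why the set was a block.

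The members, gene lists and tests were chosen with earlier results of these data known. Named with values for each array are the 12 members with the largest rise in wild type and up to 4 called members in each direction of each test. Others were singled out after their values were seen, such as YNL134C as a reductase. Alternatives were another spline, filter, normalization and variance model, other arrays in the fit, and each time point left out.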

Additional observations from a re-analysis of the deposited data

Results flagged for a closer look

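The strains differed in their response, by a direct test of the difference, in 5 members. In MMS the fitted difference of mutant minus wild type was -1.61 for YGL258W-A and 1.74 for YLR154C-H. After phenanthroline the change of slope with H2O2 was more positive in the mutant by 0.0293 per min for YML131W, 0.0210 for YCR102C and 0.0202 for YNL134C. For YML131W the scaled wild type reference rose above its start, so its change of slope is not one of decay rate. The results for YML131W and YNL134C kept their direction and passed under all 11 other settings, that for YCR102C under 5 of 11, and those for YGL258W-A and YLR154C-H under 6 and 5 of 12. With 1 culture per course, a difference between strains cannot be told apart from one between cultures.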

How the results depend on the processing

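The number of members called higher in the mutant H2O2 course was 42. It ranged from 18 to 47 with single times left out (18 without 10 min), and it was 25 by the fold at 2 or more times, an alternative chosen after seeing the data. In MMS the number called higher was 42 to 58 in wild type and 47 to 60 in the mutant with single times left out, and the number called lower was 1 to 7 and 0 to 7 (7 without 0 min in each). The 2 members of the MMS strain difference became 0 with 2 degrees of freedom and 0 to 4 with single times left out.

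With single times left out, the members with a lower decay slope in H2O2 numbered 7 to 16 in wild type and those with a higher one 0 to 1. In the mutant they were 0 to 4 and 1 to 2, and the lower ones were 2 with quantile normalization and 3 with the mutant arrays alone. The strain difference of the slope change kept 2 to 4. The untreated difference of 2 members was 0 without the replicate block, where the smallest adjusted p over all probe sets was 0.098 and 255 had an unadjusted p under 0.05, and 2 with all 3 pairs, the first of which shares an array with the choice of members. The cause of these changes was not tested.

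Leaving out 0 min reads a change from the first remaining time, so that fitted H2O2 changes in the mutant turned to -2.30 for YKL070W, -1.99 for YCR102C, -1.30 for YLR460C and -0.35 for YML131W, while these ranged up to 3.76, 3.60, 3.39 and 2.46 with other times left out. YNR068C ranged from -1.74 to 0.91 and YDR042C in mutant MMS from -1.62 to 0.79. For the MMS strain difference YGL258W-A ranged from -1.81 to 0.40 and YLR154C-H from -2.36 to 2.46, with -1.70 at 2 degrees of freedom. Of 377 alternative values for single members, 303 kept direction and side of the threshold, 62 no longer passed and 12 turned. Promoter motifs were not run, since no promoter sequences were used here. Signal over background limits YGL258W-A and the 3 members near background at 0 min.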
